A study of Drosophila melanogaster with 36 samples.

Results

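Oculopharyngeal muscular dystrophy is a late-onset muscle disease caused by a lengthened alanine tract in PABPN1, the nuclear poly(A) binding protein. The fly model of the study expresses the mammalian protein with the lengthened tract, PABPN1-17ala, in muscle, and its wing muscles degenerate as the flies age. The comparison described here is between thoraxes of day 11 and of day 2 in these flies, and it asks which transcripts changed while the muscle was deteriorating. Its members are the 6 PABPN1-17ala day 11 arrays and the 6 PABPN1-17ala day 2 arrays, 12 of the 36 arrays of the series, chosen by their labelled genotype and age alone.

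The PABPN1-17ala flies were UAS-PABPN1-17ala/+; Mhc-Gal4/+ and the control flies were Mhc-Gal4/+, so both genotypes carried Gal4 under the promoter of the muscle Myosin heavy chain gene and only the PABPN1-17ala flies carried the transgene. RNA came from 50 thoraxes per extract, with 3 extracts per genotype and age, and the sex of the flies is not stated in the sources used here. Each condition was hybridised to 3 arrays labelled in Cy5 and 3 labelled in Cy3 against a common reference, a pool of control day 2 thorax RNA. Day 6 arrays of both genotypes and the control day 11 and day 2 arrays, 6 of each, served as the comparison.

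A thorax is mostly muscle. Its bulk is the indirect flight muscle, whose fibres are packed with sarcomeres and mitochondria, and it also holds jump and leg muscles, cuticle-forming epidermis, tracheae, fat body, blood cells and nervous tissue. In a sarcomere, thick filaments of myosin slide along thin filaments of actin, and the thin filaments are anchored in the Z-disc. PABPN1 binds the poly(A) tail as it is made and stimulates its extension, and most messenger RNAs need that tail for export, translation and stability. In RNA of whole thoraxes, fewer cells of a type and less RNA per cell cannot be told apart.

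The deposited values are log ratios of a sample to the reference, taken here as log2. The changes on the Cy5 and Cy3 arrays had a correlation of 0.651 across genes, which are not independent replicates, so both dyes run the same way, but this does not settle which way. The direction is taken as sample over reference and is only likely: the labels list the sample as the first channel and the reference as the second, and read this way complex I genes lay below control in young PABPN1-17ala flies, the direction that the study's text and legends give for these mRNAs. With the ratio turned round, every rise below would be a fall. A ratio holds no level that could be compared between genes, so marker levels of the tissue could not be checked. Ratios of a gene can sit at different heights on the 2 dyes, and each day 11 value is therefore set against the day 2 values of its own dye.

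Among the PABPN1-17ala day 11 arrays, 1 stood apart. PABPN1-17ala day 11 replicate 4, a Cy3 array, had a mean correlation of 0.546 with the other arrays of its condition and dye, against 0.674 and 0.673 for those arrays, and of 0.358 with the Cy5 arrays of its condition. Its changes from day 2 were often smaller than those of the other 5 day 11 arrays, and counts are given with and without it. Lower mean correlations within a condition and dye occurred elsewhere. They were 0.478 for PABPN1-17ala day 2 replicate 1, against 0.594 and 0.606 for the arrays beside it. Control day 2 arrays had 0.347 to 0.464, and control day 11 replicates 1 and 5 had 0.497 and 0.477. A second label point concerns PABPN1-17ala day 2 replicate 1, for which one label names the control genotype and all others name PABPN1-17ala. On that array CG15617, a gene of unknown function, read 3.16, within the 2.99 to 3.32 of the other 5 PABPN1-17ala day 2 arrays, against -0.23 to 0.41 on control day 2 arrays. CG15617 was named for its difference between genotypes, a choice that used this array. Pomp, an assembly factor of the proteasome, read 0.15 on it, outside the -0.35 to -0.25 of the other 5. That value lay within the -0.15 to 0.21 of control day 2, and single genes do not settle the label. No pair of the 36 arrays held identical values.

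Of 13791 genes tested, 294 were higher at day 11 than at day 2 in PABPN1-17ala thoraxes (2.13%) and 250 were lower (1.81%), at an adjusted p below 0.05 on both dyes. The median change was 1.93-fold among the higher genes and 1.97-fold among the lower genes, and 135 and 120 of them changed at least 2-fold. The day 11 and day 2 arrays did not overlap on either dye for 293 of the 294 and for 248 of the 250. Over all genes tested, 5.16% and 4.18% did not overlap in each direction. The same arrays made the calls, so non-overlap of called genes here and below is a description and adds no support. Leaving out replicate 4 raised the counts to 388 higher (2.81%) and 422 lower (3.06%), and 291 and 247 of the first calls were among them. With no adjustment, 9.12% of all genes passed in PABPN1-17ala. Counts of list members called in PABPN1-17ala below are to be read against the 2.13% higher and 1.81% lower over all genes.

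In control thoraxes over the same days, 91 genes were higher (0.66%) and 123 were lower (0.892%), while 1.67% and 2.58% did not overlap in each direction and 5.39% passed with no adjustment. Of these, 70 higher and 69 lower genes were also called in PABPN1-17ala, which is 76.9% and 56.1% of the control calls and 23.8% and 27.6% of the PABPN1-17ala calls. CG13026 was the one gene called in opposite directions, higher in PABPN1-17ala and lower in control. A test of the difference between genotypes called 29 genes that fell more or rose less in PABPN1-17ala (0.21%) and 11 that rose more or fell less (0.0798%), and without replicate 4 these counts were 132 (0.957%) and 101 (0.732%), all 40 genes included. With no adjustment, 4.49% passed this test. A call in one genotype alone is therefore not shown to differ from the other unless that test is quoted beside it. Fewer calls in control are likewise not shown to mean less change there. Cy5 arrays alone gave 891 higher and 1011 lower in control, against 846 and 811 in PABPN1-17ala. Cy3 arrays alone gave 523 and 1709, against 581 and 477. A joint fit of both dyes gave 477 and 820, against 905 and 890.

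**Figure D1:**
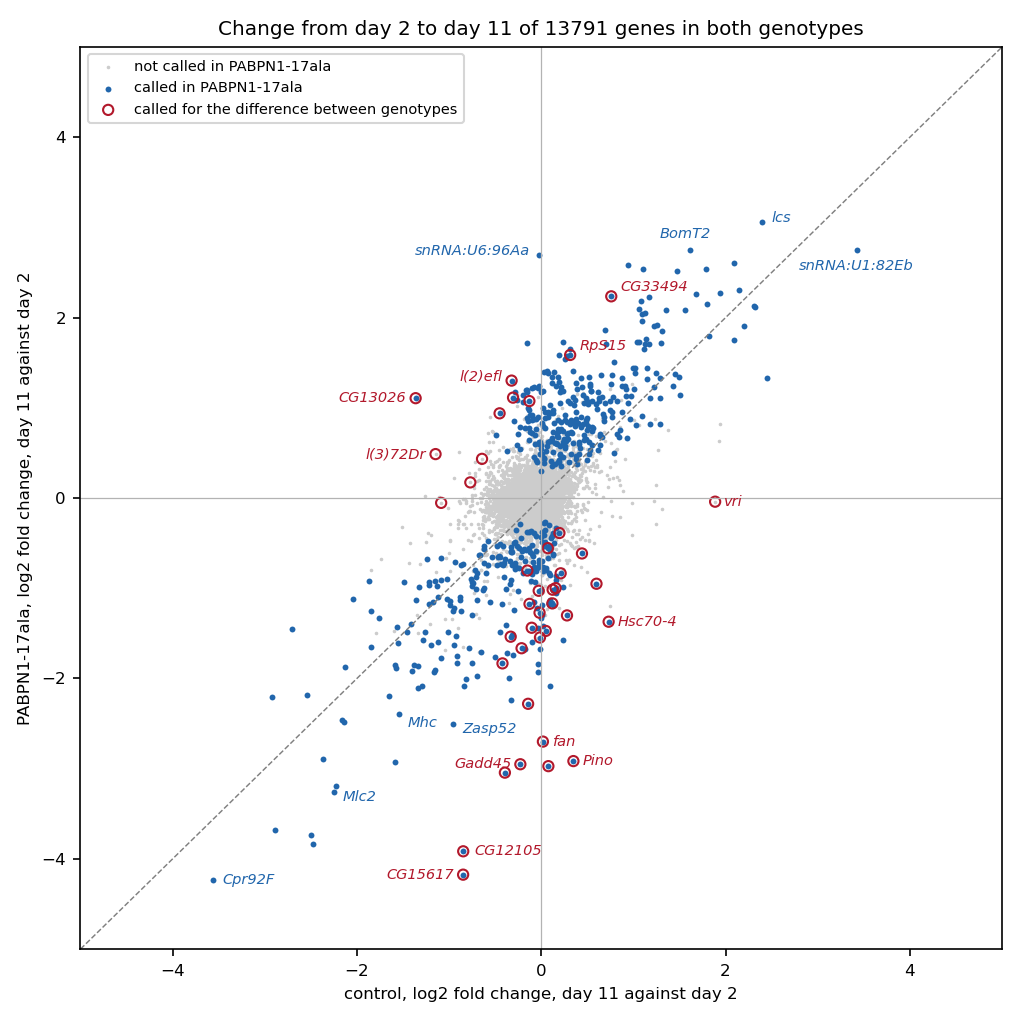
Change between day 11 and day 2 for each of the 13791 genes tested, with PABPN1-17ala on the vertical axis and control on the horizontal axis, both as log2 fold change averaged over the dyes. Blue points are the genes called in PABPN1-17ala, red rings the 40 genes called for the difference between genotypes, and most rings lie below the diagonal (29 of 40).

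The lower genes reached their day 11 level earlier than the higher genes. At day 6 the median lower gene had gone 67.0% of the way, and 189 of 250 had gone at least 50%. The median higher gene had gone 36.4% of the way, and 94 of 294 had gone at least 50%. These shares reuse the day 2 and day 11 arrays that chose the genes and are given as a description.

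All 6 thick filament genes tested were lower at day 11 in PABPN1-17ala (median log2 fold change -2.01, against 0.01 over all genes), and 3 of the 6 were called in control (median -1.48). Mhc, the motor protein of the thick filament, read -2.22, -2.88 and -2.18 on the Cy5 day 11 arrays and -0.94, -1.33 and -1.76 on the Cy3 day 11 arrays of PABPN1-17ala. On the day 2 arrays it read 0.33, -0.11 and -0.25 on Cy5 and 0.85, 1.34 and 0.90 on Cy3. Every day 11 array lay below every day 2 array, and the array nearest to day 2 was replicate 4. The change of Mhc was -2.41 ± 0.20 on Cy5 and -2.37 ± 0.26 on Cy3 (SE, log2), a 5.25-fold fall with an adjusted p of 4.08e-05.

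Mlc2, the regulatory light chain of myosin, ranged from -3.13 to -0.61 with a median of -2.40 at day 11 and from -0.26 to 2.01 with a median of 1.38 at day 2, a 9.60-fold fall (adjusted p = 4.14e-05). The wide day 2 range lay between the dyes, with the Cy3 arrays at 1.96 to 2.01 and the Cy5 arrays at -0.26 to 0.79. flightin (fln), which stiffens the thick filament of flight muscle, ranged from -4.81 to -2.58 at day 11 and from -1.11 to -0.65 at day 2, a 7.40-fold fall (adjusted p = 0.000574). The remaining members were Prm, the paramyosin core of the filament, Mlc1, the essential light chain, and Mf, myofilin, with log2 fold changes of -1.63, -1.39 and -1.60. Mhc, Mlc2 and fln also fell in control, by 1.54, 2.25 and 2.36 on the log2 scale, and none of the 3 was called for the difference between genotypes. Mf changed by -0.10 in control. The count of 6 called members dropped to 3 when single arrays were left out in turn.

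Fewer genes of the thin filament changed. Of 13 tested, 3 fell and none rose in PABPN1-17ala (23.1% lower, median -0.14), against 2 that fell in control (median -0.38), and 5 were called lower in PABPN1-17ala without replicate 4. TpnC4, a flight muscle troponin C that binds calcium, ranged from -3.10 to -2.01 at day 11 and from -1.23 to -0.35 at day 2, and its day 6 arrays lay between -3.59 and -2.54. It fell 3.62-fold (adjusted p = 0.00138). TpnC41C, another muscle troponin C, ranged from -2.26 to -1.33 at day 11 and from -0.37 to -0.02 at day 2. It fell 3.05-fold (adjusted p = 1.33e-05), and in control its log2 fold change was -1.56 against -1.61 in PABPN1-17ala. Act57B, an actin, fell by 1.53 on the log2 scale (adjusted p = 0.0132), with replicate 4 at 0.69 and the other day 11 arrays between -1.69 and -0.56. Act88F, the actin of the indirect flight muscle, was not tested because it had a value on only 3 of the 6 PABPN1-17ala day 11 arrays, -2.24 and -0.25 on Cy5 and -0.59 on Cy3.

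Of 12 Z-disc and connecting filament genes, 5 fell (41.7%) and 0 rose in PABPN1-17ala (median -0.58), against 1 that fell in control (median 0.00). Without replicate 4, 7 fell in PABPN1-17ala, and 4 were called lower for the difference between genotypes. Zasp52, a scaffold of the Z-disc, ranged from -2.42 to -0.61 with a median of -2.17 at day 11 and from 0.45 to 0.77 at day 2. The value of -0.61 was that of replicate 4, and the other 5 day 11 arrays lay between -2.42 and -1.97. The fall was 5.67-fold (adjusted p = 0.000427). In control the change was -0.96 on the log2 scale and was not called, and the difference between genotypes of -1.55 passed only without replicate 4 (adjusted p = 0.249 with it and 0.00265 without). Mlp84B, a LIM protein of the Z-disc, changed by -1.58 in PABPN1-17ala and by 0.24 in control, and the difference likewise had an adjusted p of 0.316 with replicate 4 and 0.00047 without it. Actn, the actin cross-linker alpha-actinin, fell 3.76-fold (adjusted p = 0.0451), with replicate 4 at -0.21 and the other day 11 arrays between -3.26 and -1.94. sls, the titin-like connecting filament protein, and jbug, a filamin, fell by 0.75 and 0.71 on the log2 scale.

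**Figure D2:**
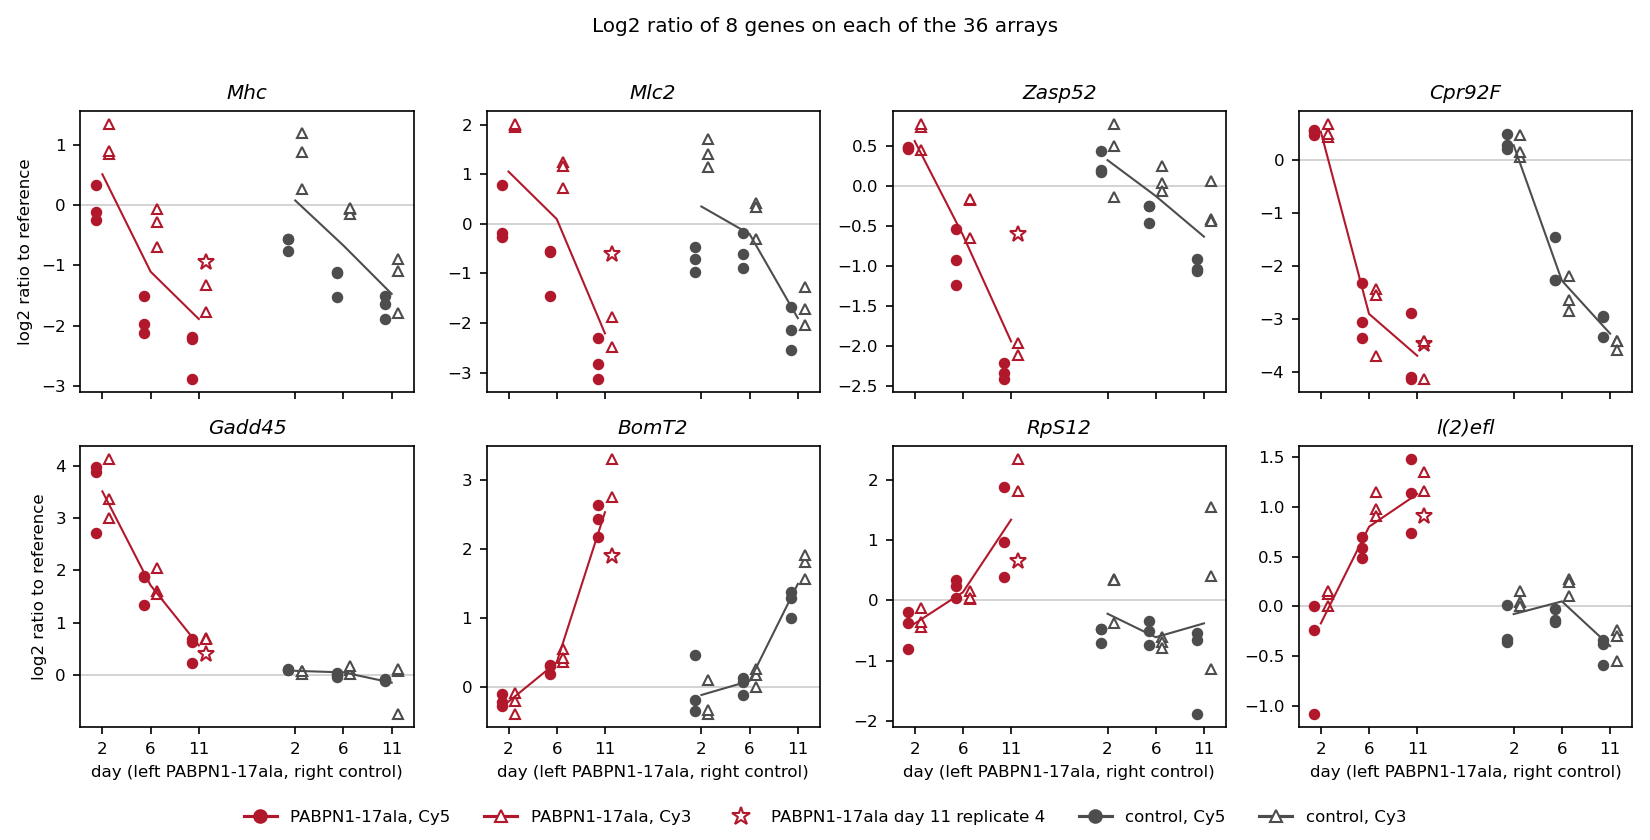
Log2 ratio to the reference of 8 genes on each of the 36 arrays at days 2, 6 and 11, PABPN1-17ala in red to the left of control in grey. Filled circles are Cy5 arrays, open triangles Cy3 arrays, the star marks PABPN1-17ala day 11 replicate 4, and the line joins the means of both dyes. Mhc, Mlc2, Zasp52 and Cpr92F lie lower at day 11, Gadd45 lies highest in PABPN1-17ala at day 2, and BomT2, RpS12 and l(2)efl lie higher at day 11 in PABPN1-17ala.

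Cuticle genes made up part of the steepest falls and moved alike in control. Of 136 cuticle protein genes, 12 fell (8.82%) and 2 rose (1.47%) in PABPN1-17ala, against 13 that fell and 2 that rose in control, and the list's median was 0.01 beside 0.01 over all genes. Cpr92F, a chitin-binding cuticle protein, ranged from -4.14 to -2.90 at day 11 and from 0.44 to 0.68 at day 2 in PABPN1-17ala, an 18.8-fold fall (adjusted p = 9.34e-07). In control it ranged from -3.59 to -2.95 at day 11 and from 0.06 to 0.49 at day 2. Vajk3, a secreted protein of the cuticle, fell 14.3-fold and Acp1, an adult cuticle protein, fell 12.8-fold in PABPN1-17ala, with replicate 4 the highest day 11 array for both. CG7203 and CG7214, uncharacterised here, fell 13.3-fold and 9.17-fold and were also called in control. By day 6 the 12 cuticle genes called lower had gone a median of 84.2% of the way, and the 2 called higher 48.1%. Cpr100A, whose mRNA the study used as a normaliser in RT-qPCR, fell by 1.49 on the log2 scale in PABPN1-17ala and by 1.46 in control.

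Few nuclear genes of the respiratory chain were called between day 11 and day 2 in PABPN1-17ala. Of 39 nuclear genes of complex I, the NADH dehydrogenase that feeds electrons into the respiratory chain, 1 fell and none rose (median 0.02), while in control 3 fell (median -0.25). The PABPN1-17ala arrays began low: the median over these 39 genes was between -0.64 and -0.33 on the day 2 arrays, between -1.10 and -0.82 at day 6 and between -0.57 and -0.12 at day 11. In control it was between -0.01 and 0.00 at day 2, between -0.19 and -0.08 at day 6 and between -0.48 and -0.09 at day 11. The median gap of PABPN1-17ala to control over the 39 genes was 0.00 at day 11 and -0.59 at day 2, and the day 11 arrays of the 2 genotypes overlapped. Without replicate 4, 3 complex I genes were called higher and 2 lower.

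The respiratory genes that did change were of both signs. In PABPN1-17ala 2 of 11 complex III genes (18.2%) and 2 of 15 complex V genes (13.3%) fell, against 1 and 3 in control, and 1 of 14 complex IV genes rose, against 0 in control. ND-42, a complex I subunit, ranged from -2.43 to -1.31 at day 11 and from -0.73 to -0.25 at day 2 and fell 2.39-fold (adjusted p = 7.98e-06). In control ND-42 was lower at day 11 too, with -1.29 to -0.69 against -0.23 to 0.40 at day 2. Cyt-c1, the cytochrome c1 of complex III, ranged from -2.62 to -1.51 at day 11 and from -0.28 to 0.01 at day 2, a 4.25-fold fall (adjusted p = 8.98e-05). In control Cyt-c1 changed by -0.84 and was not called. UQCR-C1, a core protein of complex III, fell 2.27-fold, and blw and ATPsyngamma, the alpha and gamma subunits of ATP synthase, fell 4.56-fold and 3.41-fold, and these 3 were called in control too. COX7A, a subunit of cytochrome c oxidase, ranged from 0.21 to 1.40 at day 11 and from -0.60 to -0.26 at day 2, a 2.42-fold rise (adjusted p = 0.000964). None of the 6 complex II genes was called, with 0 called in control as well and 1 called lower without replicate 4. Unlike for complex I, the median gap of PABPN1-17ala to control over these 6 genes was -0.66 at day 2 and -0.73 at day 11. Their median on the day 11 arrays lay between -0.92 and -0.23 in PABPN1-17ala and between -0.16 and 0.17 in control.

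Among 17 citric acid cycle enzymes 3 fell (17.6%) and 1 rose in PABPN1-17ala (median -0.16), against 2 that fell in control (median -0.37), and without replicate 4 the number lower in PABPN1-17ala was 6. Idh3a, a subunit of isocitrate dehydrogenase, Mdh2, the mitochondrial malate dehydrogenase, and kdn, citrate synthase, fell 3.56-fold, 3.02-fold and 2.17-fold. Mdh1, the cytosolic malate dehydrogenase, rose 2.04-fold (adjusted p = 0.029). For Idh3a the day 11 value of replicate 4 was -0.34 and those of the other 5 arrays lay between -2.86 and -2.19. Of 17 genes on the glycolysis list only Gpo1, the mitochondrial glycerol phosphate dehydrogenase, fell (4.32-fold, adjusted p = 7.57e-05). The list median was -0.48 in PABPN1-17ala, and without replicate 4 the number lower was 7. In control 1 gene of the list fell (median -0.22). Gpo1 ranged in control from -1.53 to -0.68 at day 11 and from -0.05 to 0.36 at day 2. Mitochondrial ribosomal protein genes had 4 higher (5.8%, against 2.13% of all genes) and 0 lower of 69 (median 0.15). In control 0 were higher and 2 lower (median -0.15).

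A further set of genes fell in PABPN1-17ala from high values at day 2, at which age control thoraxes lay near the reference. Gadd45, which acts in DNA damage and stress signalling to the JNK pathway, read 0.70, 0.64 and 0.23 on the Cy5 and 0.41, 0.72 and 0.69 on the Cy3 day 11 arrays of PABPN1-17ala. At day 2 it read 2.72, 3.99 and 3.88 on Cy5 and 3.01, 4.13 and 3.36 on Cy3, and the ages did not overlap. The fall was 7.73-fold (adjusted p = 3.24e-06), day 6 arrays lay between 1.34 and 2.05, and all control arrays of days 11 and 2 lay between -0.76 and 0.12. The difference between genotypes was -2.72 (adjusted p = 0.00145). Mmp1, a matrix metalloproteinase and JNK target, ranged from -0.65 to 0.07 at day 11 and from 0.69 to 1.5 at day 2 in PABPN1-17ala, and its difference between genotypes was -1.52 (adjusted p = 0.000855). These were the 2 members of 12 JNK pathway genes that fell (16.7%, against 1.81% of all genes), and none rose.

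CG15617 ranged from -1.26 to -0.76 at day 11 and from 2.99 to 3.32 at day 2, an 18.1-fold fall with an adjusted p of 2.29e-07, while in control it changed by -0.85. CG12105 fell 15.1-fold and CG12290 fell 7.85-fold. Pino, another gene called for the difference, changed by -2.92 in PABPN1-17ala and by 0.35 in control. Over the 29 genes whose change was lower in PABPN1-17ala than in control, 28 were called lower in PABPN1-17ala, and their mean at day 2 was between 0.30 for Elp2 and 3.52 for Gadd45. The day 2 means of control for these genes lay between -0.26 and 0.35, as the reference pool was itself control day 2 RNA. The exception was vri, a transcription factor of the circadian clock, which changed by -0.04 in PABPN1-17ala and was called higher in control (1.89). Among the 29, and named after their values were seen, were dl, the Toll pathway transcription factor Dorsal, Hsc70-4, a constitutive Hsp70 chaperone, unc-45, a myosin chaperone, Cul2, a ubiquitin ligase scaffold, and pirk, an inhibitor of Imd signalling. Hsc70-4 changed by -1.37 in PABPN1-17ala and by 0.73 in control (difference -2.10, adjusted p = 0.0113).

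Secreted immune peptides were among the genes that rose most, and some of them rose in control too. Of 49 genes of the Imd and Toll pathways, by which flies sense bacteria and fungi, 14 rose (28.6%) and 3 fell (6.12%) in PABPN1-17ala, against 6 that rose and 0 that fell in control, and the medians of 0.12 and 0.11 lay near each other. BomT2, a Bomanin peptide induced through Toll, ranged from 1.90 to 3.31 with a median of 2.54 at day 11 and from -0.40 to -0.08 at day 2, a 6.75-fold rise (adjusted p = 3.18e-06). In control it ranged from 1.00 to 1.91 at day 11 and from -0.40 to 0.46 at day 2, and the difference between genotypes of 1.14 passed only without replicate 4 (adjusted p = 0.663 with it and 0.00881 without). IM33 and BomS2, further induced peptides, rose 4.80-fold and 4.56-fold. Of the 14 risers, 8 were short peptides of the Bomanin family, whose similar genes a probe may not tell apart.

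Drs, the antifungal peptide Drosomycin, ranged from 1.91 to 2.67 at day 11 and from -0.43 to 0.14 at day 2 in PABPN1-17ala, a 5.80-fold rise (adjusted p = 3.42e-06). In control it ranged from 0.24 to 1.34 at day 11, below every PABPN1-17ala day 11 array, and its change of 1.10 was not called (adjusted p = 0.0517). The difference of 1.44 had an adjusted p of 0.0577 with replicate 4 and 0.0239 without it. With Drsl4, a Drosomycin-like peptide (5.73-fold), and Def, the antibacterial peptide Defensin (log2 fold change 0.38), Drs made 3 higher and 0 lower of 20 antimicrobial peptide genes. That is 15% higher, against 2.13% of all genes. The 3 pathway genes that fell were dl, pirk and cact, the inhibitor of Dorsal, at -1.66, -1.27 and -0.56.

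Several other genes with large rises were also called in control. lcs ranged from 2.36 to 3.31 at day 11 and from -0.29 to -0.04 at day 2, an 8.31-fold rise in PABPN1-17ala and 5.26-fold in control. whe, CG7695 and Nplp2, annotated as a neuropeptide-like precursor, rose 6.11-fold, 5.81-fold and 4.93-fold, and all 3 were called in control. CG14645 rose 5.98-fold (adjusted p = 0.00126), with 0.94 in control on the log2 scale. Of 51 odorant-binding protein genes, which encode small secreted carriers, 8 rose (15.7%) and 0 fell in PABPN1-17ala, against 4 and 1 in control, led by Obp56d (4.25-fold) and Obp99c (4.13-fold). Of 35 glutathione S-transferase genes, enzymes of detoxification, 6 rose (17.1%) and 1 fell (2.86%) in PABPN1-17ala, against 3 and 2 in control. GstE9 and GstE12 rose 3.31-fold and 2.72-fold, and GstS1, abundant in flight muscle, fell 5.59-fold (adjusted p = 0.0133), with replicate 4 at -1.04 and the other day 11 arrays between -3.47 and -2.83. GstS1 also fell in control, by 2.14 on the log2 scale (adjusted p = 0.0311).

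Cytosolic ribosomal protein genes rose in PABPN1-17ala, and none was called in control. Of 91 tested, 34 rose and 0 fell (37.4%, against 2.13% of all genes), with a median of 0.55, while in control 0 rose and 0 fell with a median of -0.04. RpL38, a protein of the large subunit, read 1.25, 1.06 and 1.24 on Cy5 and 0.57, 1.83 and 1.89 on Cy3 at day 11. At day 2 it read -0.03, -0.30 and -0.39 on Cy5 and -0.63, -0.49 and -0.22 on Cy3. No day 11 array overlapped a day 2 array, the lowest of them was replicate 4, and the rise was 3.14-fold (adjusted p = 0.000415). RpL35 ranged from 0.45 to 1.81 at day 11 and from -0.64 to 0.07 at day 2, a 3.00-fold rise. RpS12 had the largest rise of the list, 3.30-fold, on arrays from 0.38 to 2.34 at day 11 and from -0.81 to -0.13 at day 2, but its control day 11 arrays spread from -1.89 to 1.54. RpS2, whose mRNA the study used as a normaliser under the name sop, had a log2 fold change of 0.55 and was not called (adjusted p = 0.16, and 0.0203 without replicate 4).

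The rise came late. The median over the 91 genes lay between -0.06 and 0.02 on the PABPN1-17ala day 2 arrays, between 0.02 and 0.22 at day 6 and between 0.20 and 1.21 at day 11, where control day 11 arrays lay between -0.19 and 0.00. The 34 called genes had gone a median of 29.2% of the way by day 6. The size differed between dyes, with list medians of 0.40 on Cy5 and 0.72 on Cy3, and the lowest day 11 array on the plot of list medians was replicate 4. Only RpS15 and RpL9 were called for the difference between genotypes, and 28 genes of the list were called for it without replicate 4. RpS14a and RpS14b are near-identical copies, so their values of 1.20 and 1.18 may be a single signal.

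**Figure D3:**
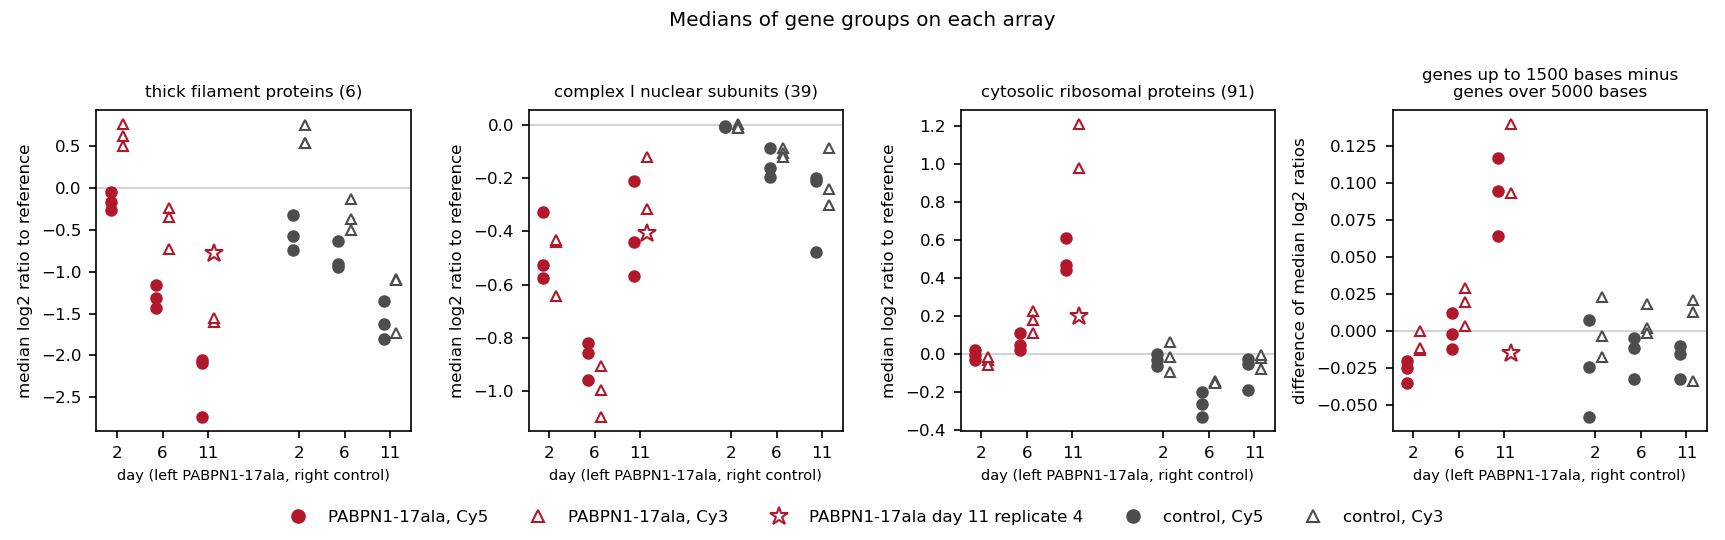
Median log2 ratio of each array over thick filament genes (6), complex I genes (39) and cytosolic ribosomal protein genes (91), and the median of genes up to 1500 bases minus the median of genes over 5000 bases, at days 2, 6 and 11 with PABPN1-17ala left of control. Thick filament genes lie lowest at day 11, complex I genes lie lowest at day 6 in PABPN1-17ala, and ribosomal protein genes lie between 0.20 and 1.21 at day 11 in PABPN1-17ala.

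Genes of protein quality control moved in fewer numbers. Of 48 proteasome subunit genes 7 rose (14.6%) and 0 fell in PABPN1-17ala (median 0.13), all of the core particle that degrades proteins, against 0 that rose and 1 that fell in control. Prosalpha1R ranged from 0.44 to 1.11 at day 11 and from -0.46 to -0.21 at day 2, a 2.11-fold rise (adjusted p = 0.000283), and its difference between genotypes was 1.20 (adjusted p = 0.0276). Prosbeta4 and Prosalpha7 rose 1.82-fold and 1.72-fold. The 7 risers stood at a median of 118% of their day 11 change by day 6. Pomp, the assembly factor of the core particle, ranged from 0.38 to 1.17 at day 11 and from -0.35 to 0.15 at day 2, and its difference between genotypes was 1.42 (adjusted p = 0.034).

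Of 9 small heat shock protein genes 2 rose (22.2%, against 2.13% of all genes). l(2)efl, a crystallin-type chaperone of muscle, ranged from 0.74 to 1.48 with a median of 1.15 at day 11 and from -1.09 to 0.16 with a median of 0.00 at day 2, a 2.47-fold rise (adjusted p = 0.000443). In control it ranged from -0.59 to -0.24 at day 11 and from -0.36 to 0.15 at day 2, and the difference between genotypes was 1.62 (adjusted p = 0.0222). CG4461 rose in both genotypes, by 0.66 and 0.93 on the log2 scale in PABPN1-17ala and control. Of 19 Hsp70 and Hsp90 chaperone genes 0 rose and 2 fell, Hsc70-4 and stv, a co-chaperone of muscle (log2 fold change -0.27).

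Of the 11 genes whose change was higher in PABPN1-17ala than in control, CG33494, CG13026 and l(3)72Dr had some of the highest differences. CG33494 ranged from 1.89 to 2.66 at day 11 and from -0.20 to 0.03 at day 2 and rose 4.71-fold, against a log2 fold change of 0.76 in control. CG13026 ranged from 0.18 to 0.99 at day 11 and from -0.65 to -0.33 at day 2 in PABPN1-17ala, and from -1.64 to -0.51 at day 11 and from 0.14 to 0.73 at day 2 in control. l(3)72Dr had a log2 fold change of 0.49 in PABPN1-17ala, which was not called, and of -1.15 in control, which was. Named after their values were seen, Gs1l, SkpB and ND-PDSW, a complex I subunit, had log2 fold changes of 0.17, -0.05 and 0.43 in PABPN1-17ala, none of them called, against -0.77, -1.09 and -0.64 in control. Of the 11 genes, 7 were called higher in PABPN1-17ala and 5 lower in control.

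Of 11 small nuclear RNA genes, which encode the RNAs of the spliceosome, 4 rose and 0 fell in PABPN1-17ala (median 0.59). That is 36.4% higher, against 2.13% of all genes. In control 1 rose (median -0.08), and without replicate 4 the number higher in PABPN1-17ala was 3. snRNA:U6:96Aa read 3.95, 4.12 and 2.30 on Cy5 and 3.63, 4.52 and 4.05 on Cy3 at day 11, and it read 0.91, 1.09 and 1.33 on Cy5 and 0.65, 1.33 and 1.10 on Cy3 at day 2. The 2 ages did not overlap, which was a condition for naming this gene, and the rise was 6.46-fold (adjusted p = 0.00108). All control arrays of both ages lay between -0.47 and 0.28, but the difference between genotypes of 2.71 was not called (adjusted p = 0.141, and 0.0535 without replicate 4). snRNA:U1:82Eb rose 6.74-fold in PABPN1-17ala and had a log2 fold change of 3.42 in control, against 2.75. snRNA:U2:34ABa and snRNA:U4:39B rose by 0.78 and 0.59 on the log2 scale. These RNAs normally carry no poly(A) tail, and the labelled material was amplified with a kit that primes on poly(A). The U1, U2, U4 and U6 genes each have near-identical copies that a probe may not tell apart. None of 17 small nucleolar RNA genes and none of 16 transfer RNA genes was called in either direction.

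The called genes differed in gene length, taken from RefSeq for 12262 of the genes tested (88.9%). The median length was 1145 bases for genes higher at day 11 in PABPN1-17ala and 4954 bases for genes lower, against 2246 bases over all genes, and in control it was 1452 and 2561 bases. Of 3869 genes up to 1500 bases, 208 rose (5.38%) and 23 fell (0.594%) in PABPN1-17ala, against 47 that rose and 36 that fell in control. Of 3013 genes over 5000 bases, 16 rose (0.531%) and 113 fell (3.75%), against 14 and 30 in control. Without the ribosomal protein genes, whose median length was 1333 bases, 184 of the short genes were higher and 23 lower.

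On each array the median of the short genes minus that of the long genes was small. In PABPN1-17ala it lay between -0.0351 and -0.0004 on the day 2 arrays and between -0.0127 and 0.0288 on the day 6 arrays. It lay between 0.0641 and 0.139 on 5 of the 6 day 11 arrays and was -0.0154 on replicate 4, and over all control arrays it lay between -0.0581 and 0.0225. Among lists that rose in part, the median length was 1333 bases for ribosomal protein genes, 1024 for Imd and Toll pathway genes and 131 for small nuclear RNA genes. Among lists that fell in part, it was 7000 bases for thick filament genes, 4430 for thin filament genes and 28498 for Z-disc and connecting filament genes. Complex I genes, of which 1 fell and none rose, had a median length of 1094 bases. The part of gene length in these results was not tested.

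**Figure D4:**
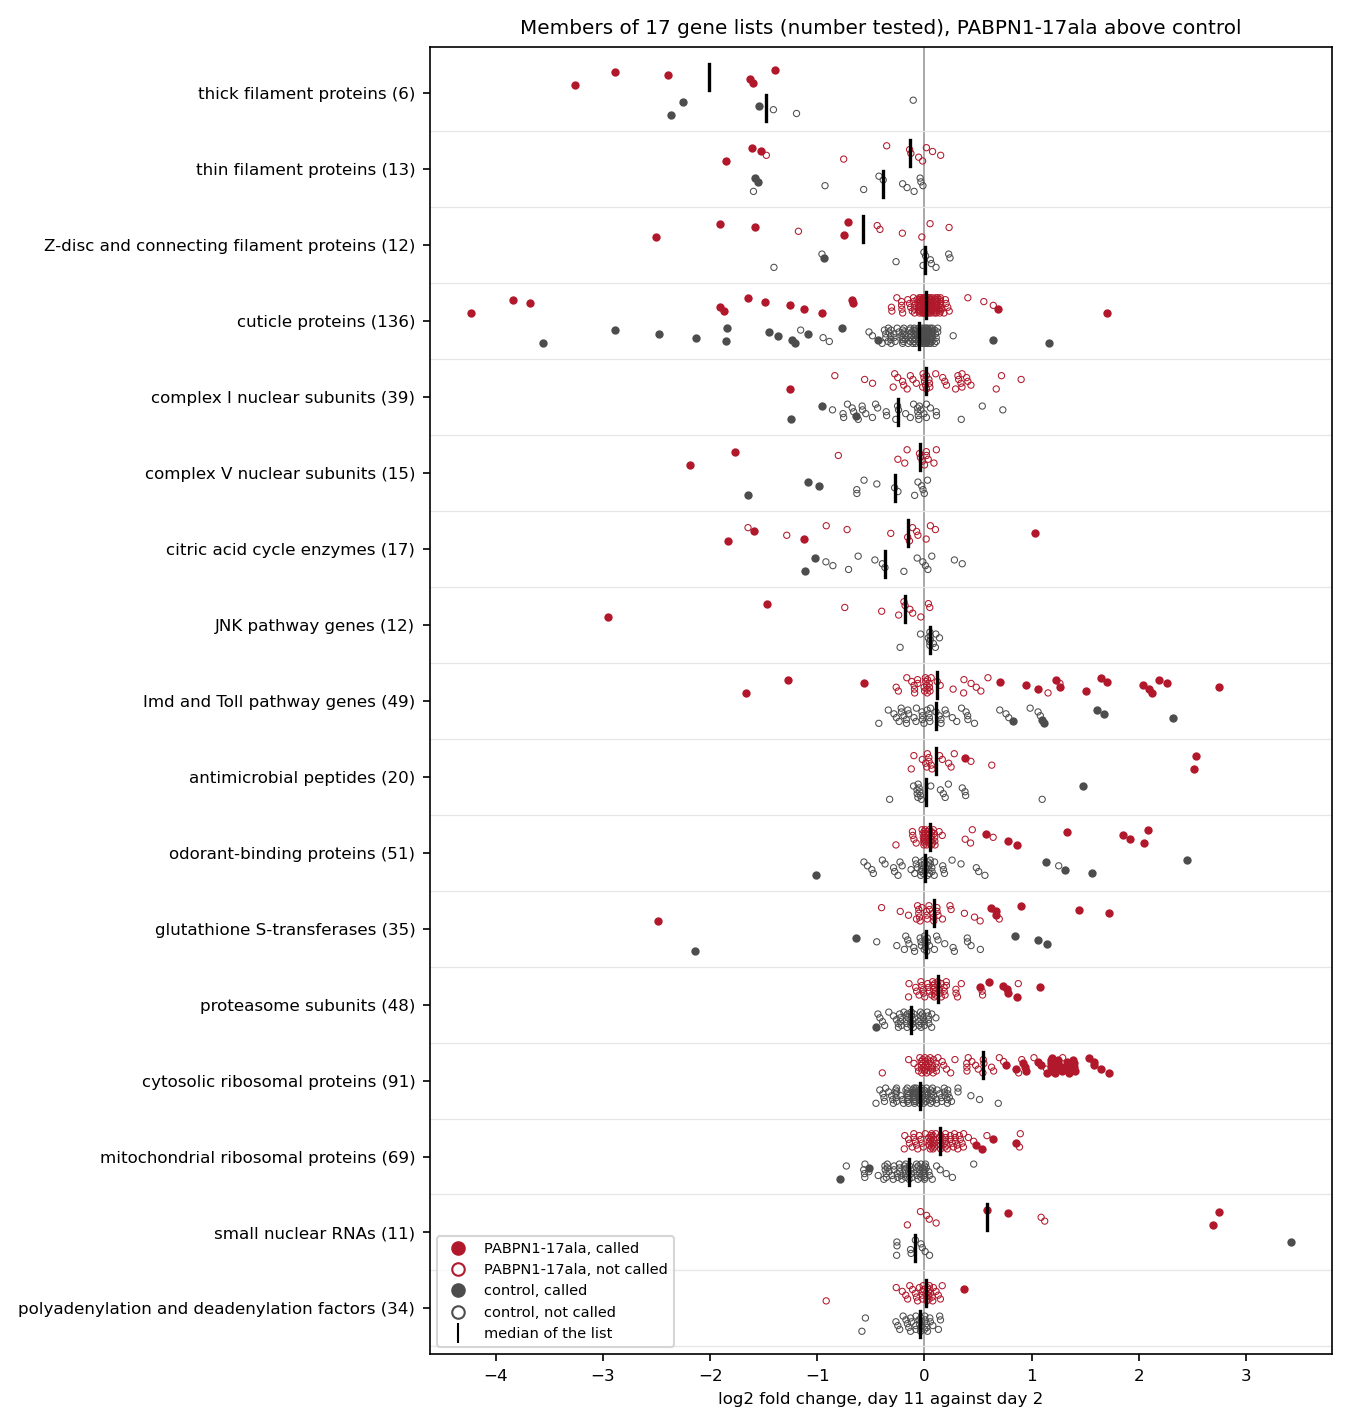
Log2 fold change between day 11 and day 2 of every tested member of 17 gene lists, with PABPN1-17ala above control in each list, filled points for called genes and a bar at the list's median. Thick filament genes are all filled and left of 0 in PABPN1-17ala, ribosomal protein genes centre right of 0 (median 0.55) with 34 of 91 filled, and cuticle and complex I genes centre on 0 with a few far members.

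Genes that the study manipulated or followed for other reasons were mostly not called between the ages. Pabp2, the fly's own PABPN1, ranged from -0.05 to 0.49 at day 11 and from 0.06 to 0.30 at day 2 (log2 fold change 0.02). smg and twin, which encode the RNA-binding protein Smaug and the CCR4 deadenylase, changed by 0.08 and 0.03. The regulators of mitochondrial genes srl, ewg, ERR and Ets97D changed by 0.02, -0.04, 0.07 and 0.01. None of these was called, and their ranges at the 2 ages overlapped. GstD1, used by the study as a sign of oxidative stress, ranged from 1.34 to 2.38 at day 11 and from 2.27 to 2.53 at day 2 in PABPN1-17ala, against -0.18 to 1.40 at day 11 and -0.17 to 0.46 at day 2 in control, with a log2 fold change of -0.40 that did not pass. Of 34 polyadenylation and deadenylation factors only Not11, a subunit of the CCR4-NOT complex, was called (log2 fold change 0.37, adjusted p = 0.0476).

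The array also carried a spot for the Gal4 coding sequence, the driver that both genotypes share. In PABPN1-17ala it read -2.54, -2.87 and -2.23 on Cy5 and -0.53, -2.43 and -2.65 on Cy3 at day 11, and 0.51, 0.48 and 0.35 on Cy5 and 0.87, 1.02 and 0.78 on Cy3 at day 2. All day 11 arrays lay below all day 2 arrays, with replicate 4 nearest to them. The fall was 7.35-fold (-2.88 on the log2 scale), with a two-sided p of 0.005 in an exact permutation test within dyes, the smallest that 400 arrangements allow. In control the change was -1.88 (exact permutation p = 0.005). This test took Cy5 and Cy3 arrays as independent, and which of them share an extract is not stated. If extracts were shared between dyes, fewer arrangements would be open and the smallest possible p would be larger. The permutation p-values here therefore describe the spread between arrays and not between extracts. Mhc fell in the same arrays as the Gal4 spot, and the part of either in the other results was not tested. Spots for LacZ, modified GFP and FLPase, which the flies should lack, changed by 0.02, 0.05 and 0.01 in PABPN1-17ala (exact permutation p = 0.605, 0.235 and 0.735).

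The remaining lists had few called members, to be read against the 2.13% higher and 1.81% lower among all genes tested in PABPN1-17ala. Among genes of other cell types, 2 of 9 hemocyte markers rose, PPO1 and PPO2, the prophenoloxidases of crystal cells, and both rose in control. Both of the called trachea markers of 5 fell, Gasp and pio, which are also proteins of the cuticle lining of the air tubes. Of 11 fat body markers 1 fell, the larval storage protein gene Lsp1beta. None of 8 neuron markers, 5 glia markers, 4 oenocyte markers, 32 gut protease genes and 15 reproductive and salivary markers was called, and without replicate 4 the glia markers had 2 lower and the neuron markers 1 lower. None of the antioxidant (14), circadian clock (11), integrated stress response (12), ecdysone response (23) and DNA replication and cell cycle (36) genes was called in PABPN1-17ala. Autophagy genes had 1 higher, Atg8a, and 2 lower, Atg1 and Atg13, of 22. Apoptosis genes had 1 lower of 19, wgn, a TNF receptor. Cytochrome P450 genes had 2 higher and 2 lower of 88 (2.27% each, near the shares over all genes), against 4 and 0 in control, fatty acid oxidation genes 2 higher of 21, Etfb and Echs1, lipid synthesis genes 1 higher of 27, Lsd-1, sugar metabolism genes 1 lower of 24, Gfat1, proline and glutamate metabolism genes 1 higher and 1 lower of 16, Mdh1 and Gad1, and insulin pathway genes 1 lower of 19, Akt.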

How the data were processed

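Per the labels, RNA was extracted with Trizol, amplified, coupled to Cy3 or Cy5 and hybridised with a common reference. The authors deposited a table of log2 ratios per gene for the 36 arrays. Log base and direction are inferred, and background correction, normalization and centring are not given in the sources used here. The ratios carry no intensity, so the number of arrays limits the precision. No column of another series was present. Of 13843 lines, 13820 name fly genes, and 12047 matched a RefSeq locus tag and 1141 a synonym.

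Each dye was fitted separately with limma 3.58.1 (R 4.3.3), 6 conditions of 3 arrays, where the study's methods state a two-way ANOVA. A gene needed values on 2 of 3 arrays per condition and dye, which left 13791. The log2 fold change is the mean over dyes, p the larger of both (1 where signs differed), adjusted by Benjamini-Hochberg over all genes tested, with a threshold of 0.05. On each dye the SE comes from the fit, in which all 6 conditions share a single estimate of the spread. Array quality weights, higher where arrays spread less, were 1.63 to 4.36 for control day 6. They were 0.213 to 1.145 for control days 2 and 11, so the shared estimate may be too small for the control comparison. The 3 arrays of a dye are labelled as separate replicates. Which Cy5 and Cy3 arrays share an extract is not stated, so p-values measure the spread between arrays. The fit was tested on simulated data with noise independent between arrays and of equal spread in all conditions. That simulation does not cover unequal spread or extracts shared between dyes.

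Named genes were the 10 with the highest and the 10 with the lowest change among called genes whose ages did not overlap, 5 in each direction for the difference, up to 3 called members of each list, and genes the study followed. Others are named after their values were seen. One gene that the rule names is not reported here. The members, lists and tests were chosen with earlier results of these data known. Alternatives were a joint fit in which dye was a covariate, fits of 1 dye, averages over assumed pairs of arrays, only the compared conditions and unmoderated ANOVA. Further ones were array weights, centring, quantile normalization, only genes with values on all arrays, stricter thresholds, a replicate block and leaving out each array.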

Additional observations from a re-analysis of the deposited data

Results flagged for a closer look

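Arrays that stood apart from the other 5 of their group were counted over the named genes. Chance alone marks about 1 group in 20 where all 6 values come from the same normal distribution. Each group here joins both dyes, which can sit at different heights, so the counts cannot be set against that rate. Of 253 groups of 6 arrays, 23 had such an array, and 11 of the 23 were PABPN1-17ala day 11 replicate 4. That array read -0.78 for Vajk3 (the others -3.36 to -2.69), -0.34 for Idh3a (-2.86 to -2.19), -1.04 for GstS1 (-3.47 to -2.83) and -0.61 for Zasp52 (-2.42 to -1.97). It also read 0.92 for crc (-1.15 to -0.38), -0.35 for Gad1 (-1.44 to -1.14), 0.32 for Eip63E (-0.37 to -0.19) and -1.01 for Lsp1beta (-0.46 to -0.22). For Syt1 it read 0.15 (-1.11 to -0.76), for nrv2 0.52 (-1.39 to -0.74) and for the Gal4 coding sequence spot -0.53 (-2.87 to -2.23). Except for Lsp1beta, these values lay above those of the other day 11 arrays. Which extract or step sets this array apart was not tested.

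Of the remaining 12, 5 were PABPN1-17ala day 2 replicate 1, the array with one label of the other genotype. It read 0.15 for Pomp (the others -0.35 to -0.25), -0.11 for GstE9 (-0.50 to -0.38), -0.62 for snoRNA:Me18S-G1620 (-0.12 to 0.15), -1.01 for tRNA:Arg-ACG-1-1 (-0.15 to 0.11) and -0.45 for Lsd-1 (-0.08 to 0.09). Day 2 replicate 3 read -1.09 for l(2)efl (-0.24 to 0.16), -0.75 for Sgs1 (-0.25 to -0.03) and 0.18 for smg (-0.22 to -0.09). Day 2 replicate 2 read 0.90 for Hsc70-4 (1.59 to 1.91). At day 11, replicate 2 read 0.34 for snoRNA:Me18S-G1620 (-0.05 to 0.09), replicate 5 read -0.65 for Sgs7 (-0.14 to 0.11) and replicate 6 read -0.48 for twin (0.01 to 0.20).

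The change between day 11 and day 2 differed between the genotypes, by the test of the difference itself, for the 5 named genes with the highest and the 5 with the lowest difference. PABPN1-17ala minus control was -3.33 for CG15617, -3.27 for Pino, -3.07 for CG12105, -3.05 for CG12290 and -2.72 for Gadd45. It was 2.47 for CG13026, 1.64 for l(3)72Dr, 1.62 for l(2)efl, 1.48 for CG33494 and 1.42 for Pomp.

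The Gal4 coding sequence spot lies outside the gene tests and changed by -2.88 in PABPN1-17ala, beyond the -1.88 in control. Whether the change of the spot differed between the genotypes was not tested.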

How the results depend on the processing

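Counts of genes are given as higher and lower, first for PABPN1-17ala, then for control, then for the difference between genotypes. They were 294 and 250, 91 and 123, and 11 and 29. One fit of all 36 arrays with dye as a covariate gave 905 and 890, 477 and 820, and 442 and 389, and means of assumed pairs of arrays gave 903 and 882, 486 and 985, and 432 and 359. Neither asks that both dyes pass. Cy5 arrays alone gave 846 and 811, 891 and 1011, and 292 and 387, and Cy3 arrays alone gave 581 and 477, 523 and 1709, and 115 and 110. Fits of only the conditions compared gave 115 and 97, 25 and 34, and 3 and 17. An adjusted p of 0.01 gave 171 and 137, 56 and 68, and 3 and 17. Array quality weights left 71 lower in control and quantile normalization left 67, with 52 lower for the difference. Unmoderated ANOVA left 73 lower in control, and 3 and 18 for the difference.

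Leaving out 1 array at a time gave 221 to 388 higher and 157 to 422 lower in PABPN1-17ala, 67 to 121 and 88 to 160 in control, and 5 to 101 and 24 to 132 for the difference. The 6 highest counts were all without PABPN1-17ala day 11 replicate 4. PABPN1-17ala calls lower were 165 without day 2 replicate 5 and 157 without day 11 replicate 5. Difference calls lower were 49 without PABPN1-17ala day 2 replicate 1, and calls higher were 5 to 7 without control day 2 replicate 4 or 5, control day 11 replicate 4, PABPN1-17ala day 2 replicate 5 or 6, or PABPN1-17ala day 11 replicate 5 or 6. The alternative that leaves out day 11 replicate 4 in every result, and the counts by gene list and gene length, were chosen after seeing the data.

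Array numbers did not pair the ages: day 11 and day 2 arrays of PABPN1-17ala with the same number had correlations of deviations from -0.124 to 0.104, with each array closest to its own number on Cy3 and none on Cy5. Between the genotypes at day 11, same-numbered arrays had correlations of 0.287, 0.186 and 0.151 on Cy3, each closest to its own number. On Cy5 they were -0.0734, -0.0296 and 0.0863. At day 2 they were 0.159, 0.0784 and 0.211 on Cy5, each closest to its own number, and -0.0286, 0.103 and -0.0596 on Cy3. As this held on a single dye at each age, the numbers were not taken to pair the genotypes either. The test of the difference ignores any such pairing. With the replicate block the counts were 293 and 236, 94 and 119, and 13 and 27, and 9 of the 11 and 25 of the 29 difference calls were shared. Of 123 named genes, 87 were called in PABPN1-17ala, none of these reversed under 37 alternatives and 45 kept the call under every one. The cytosolic ribosomal protein genes called higher were 26 to 41 of 91 when single arrays were left out and 9 to 52 over all alternatives. Calls in PABPN1-17ala were lost in 19 alternatives for Not11, 18 for Actn, 17 for Akt, 16 for stv, 14 for RpS12, 11 each for Def and Mdh1, and 10 each for Idh3a, CG4461 and Lsp1beta, and the difference in 13 for Pomp and 12 for Prosalpha1R. TpnC4 lost its call under quantile normalization (log2 fold change -0.81, adjusted p = 1). Without signal values, dim probes could not be told from bright ones, and no filter on signal was possible. The cause of each change in counts was not tested, beyond the fewer arrays or looser rule of the alternative itself.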
